A study of Mus musculus with 58 samples.

Results

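Neural progenitor genes were followed through differentiation of mouse embryonic stem cells (ES) towards neural precursor cells (NPC). The set comprises Nes, Vim, Pax6, Fabp7, Zic1, Sox11, Pou3f2 and Tubb3, 8 of the 22556 genes in the count tables, and is defined by these gene names. All 8 are listed in every count table, and 6 of them had enough fragments to be tested, whereas Zic1 and Pou3f2 did not.

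Chromatin-associated RNA sequencing (ChrRNA-seq) was carried out on 58 libraries in 28 groups, 26 of them with 2 libraries and 2 with 3. All cells were female (XX) hybrids of a 129S-type (Dom) and a castaneus (Cast) mouse, and Xist, the RNA that silences an X chromosome, was placed under a doxycycline-inducible promoter on the Dom X. WT was this parental line. SPOC carried a mutation in the SPOC domain of the corepressor SPEN, through which SPEN contacts partner proteins. PCGF35 carried an FKBP12 degron tag on PCGF3 and PCGF5, subunits of Polycomb repressive complex 1 that dTAG-13 removes from the cell, and PCGF35_SPOC had both changes. DelPID lacked the part of Xist that recruits Polycomb complexes, and DelPID_SPOC combined that deletion with the SPOC mutation, which its sample names give but its engineering label does not mention. Libraries were made from ES cells before doxycycline (day 0) and after 1 day of it, and from NPC cultures on days 3 and 6 in N2B27 medium with 1 ug/mL doxycycline. Both degron lines were also sampled with dTAG-13, at 100 uM per the labels, added 12 hours before doxycycline. A line together with its dTAG-13 treatment is called an arm below. The 8 arms had NPC libraries, and 6 of them had ES libraries, since no ES day 0 of WT or DelPID was analysed here.

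Each replicate of a SPOC-mutant line was a separate clone: F10 and F6 in PCGF35_SPOC, A8 and G3 in DelPID_SPOC, and C11, D9 and H1 in SPOC, of which D9 and H1 had NPC libraries. Nothing in the labels says that the replicates of WT, DelPID and PCGF35 came from separate derivations, so p-values there measure only the spread between these libraries. Day 6 comes before the cells are lifted into suspension with growth factors, so these are cultures on the way to NPC and not an established NPC line. ES cells were grown on inactivated mouse fibroblast feeder cells, which were depleted by pre-plating before differentiation. Depth ran from 2292261 to 30005305 fragments per library, with a median of 15920524, and a count of 0 allows up to 0.1 CPM in the deepest library and 1.31 CPM in the shallowest, where CPM is the fragments of a gene per 1000000 fragments over all genes. These limits cover counting error only. Xist had 34.2 to 135 CPM in day 0 libraries and at least 2377 CPM in every library with doxycycline.

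When ES cells leave pluripotency in N2B27 they pass through an epiblast-like state and then take on the identity of the early neural plate. Neural progenitors carry the intermediate filament proteins nestin (Nes) and vimentin (Vim) and are patterned by transcription factors such as PAX6, ZIC1, SOX11 and POU3F2. Radial glia, the progenitors of the later neural tube, add the lipid-binding protein FABP7, and young neurons build class III beta-tubulin (Tubb3). Vimentin is also abundant in fibroblasts and other mesenchymal cells, so its RNA alone does not mark neural cells.

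The 250 bases before the start of the 5 genes with measurable levels are shown. RNA on chromatin is rich in newly made transcripts, and these windows lie next to where they start. They were taken from RefSeq on mm10, are written on the strand of the gene, and have each CG dinucleotide in capitals. Nes lies on chromosome 3 from 87971092 to 87980451 on the plus strand and Vim on chromosome 2 from 13574310 to 13582826 on the plus strand. Pax6 lies on chromosome 2 from 105668895 to 105697364 on the plus strand, Sox11 on chromosome 12 from 27334267 to 27342718 on the minus strand, and Tubb3 on chromosome 8 from 123411563 to 123422010 on the plus strand. The windows are chr3:87970843-87971092 for Nes, chr2:13574061-13574310 for Vim, chr2:105668646-105668895 for the first of 2 listed Pax6 promoters, chr12:27342719-27342968 for Sox11 and chr8:123411303-123411552 for Tubb3.
Nes: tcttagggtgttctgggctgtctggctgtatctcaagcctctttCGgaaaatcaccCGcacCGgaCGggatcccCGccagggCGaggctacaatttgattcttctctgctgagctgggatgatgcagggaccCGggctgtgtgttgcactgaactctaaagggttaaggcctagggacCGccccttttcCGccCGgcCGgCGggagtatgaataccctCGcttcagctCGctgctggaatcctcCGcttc
Vim: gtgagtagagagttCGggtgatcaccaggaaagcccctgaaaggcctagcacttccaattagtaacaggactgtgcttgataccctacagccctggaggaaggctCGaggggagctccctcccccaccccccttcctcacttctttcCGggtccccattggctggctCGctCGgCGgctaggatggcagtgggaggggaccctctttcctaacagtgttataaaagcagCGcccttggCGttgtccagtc
Pax6: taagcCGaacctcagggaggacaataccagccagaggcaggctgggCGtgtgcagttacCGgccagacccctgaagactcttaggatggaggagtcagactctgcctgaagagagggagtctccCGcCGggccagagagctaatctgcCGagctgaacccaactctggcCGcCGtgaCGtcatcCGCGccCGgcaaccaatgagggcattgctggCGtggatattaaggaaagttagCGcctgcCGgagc
Sox11: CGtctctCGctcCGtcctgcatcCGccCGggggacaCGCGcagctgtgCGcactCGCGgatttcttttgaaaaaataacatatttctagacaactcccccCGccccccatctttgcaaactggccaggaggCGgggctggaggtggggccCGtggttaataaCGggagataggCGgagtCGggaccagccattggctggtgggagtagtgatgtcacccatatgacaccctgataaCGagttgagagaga
Tubb3: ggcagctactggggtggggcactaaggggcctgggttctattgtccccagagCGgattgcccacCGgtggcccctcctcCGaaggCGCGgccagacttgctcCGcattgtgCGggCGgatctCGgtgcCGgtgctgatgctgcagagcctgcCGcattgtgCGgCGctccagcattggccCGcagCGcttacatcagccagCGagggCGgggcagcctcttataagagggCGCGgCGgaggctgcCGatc
Nes held 15 CG dinucleotides, Vim 8, Pax6 15, Sox11 17 and Tubb3 21. Of the members near 0, Zic1 held 27, Pou3f2 18 and Fabp7 4, against a median of 6 over 32851 promoter windows of this length. Both the most and the fewest CG dinucleotides among the members thus stood before genes with almost no RNA. Letters searched on both strands were CCAAT (in 7 of 8 members and 33.85% of all windows), GGGCGG (in 5 of 8 and 32.74%) and TATAAA (in 1 of 8, Vim, and 12.37%). The octamer ATGCAAAT, the letters POU factors read, was in none of the 8 and in 1.601% of all windows. ACAAAG, letters that SOX factors can read, was in 1 of 8, in the second Pax6 promoter, and in 16.46% of all windows. These matches describe letters and no binding.

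The level of each member in every library is shown by stage.

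**Figure D1:**
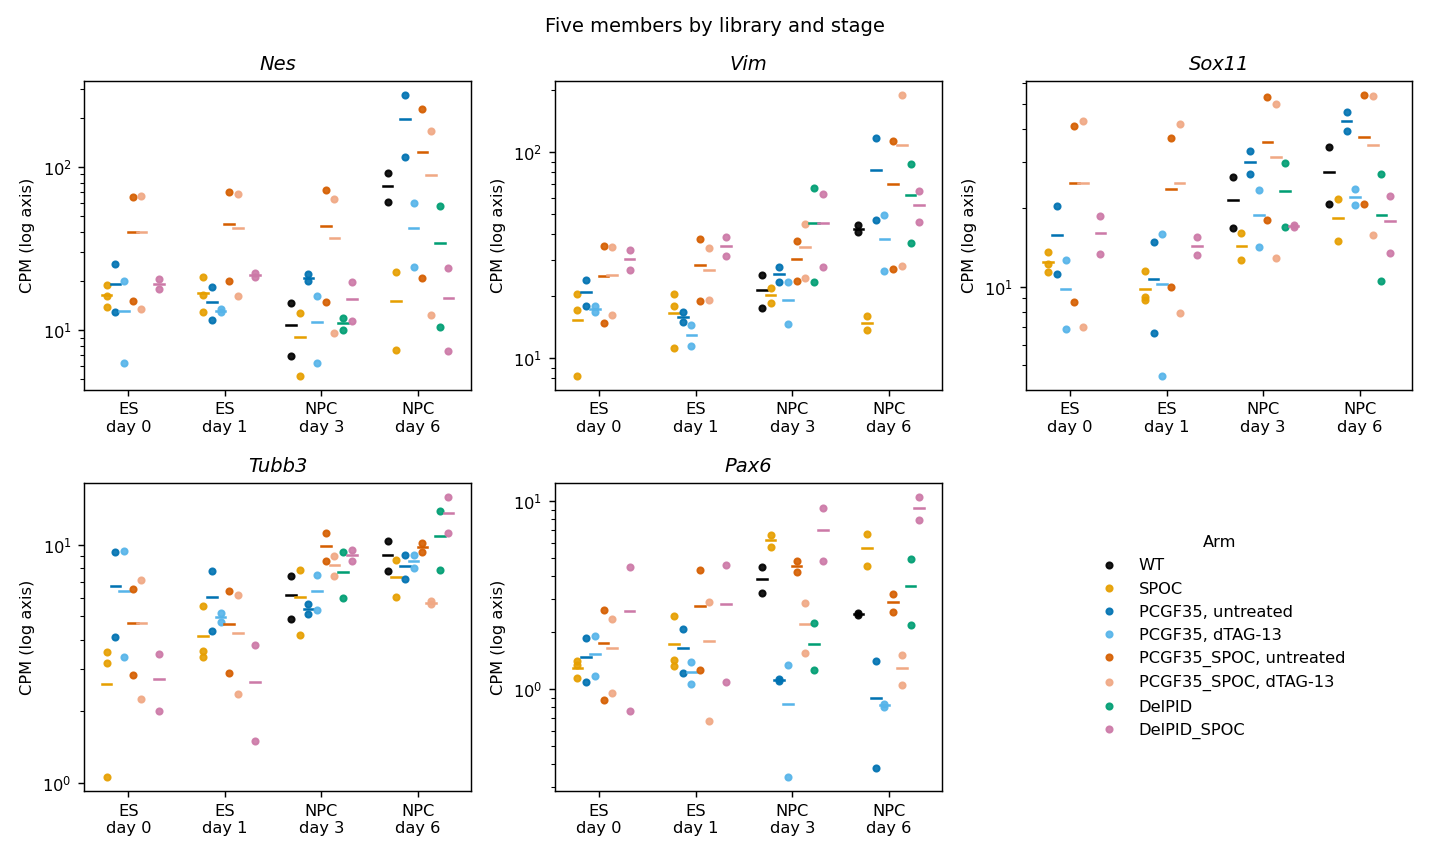
Levels of Nes, Vim, Sox11, Tubb3 and Pax6 in CPM (log axis) for each library, by stage and coloured by arm; points are libraries and bars group means. On NPC day 6 Nes spans 7.50 to 276 CPM over 16 libraries, whereas Tubb3 spans 5.64 to 15.9 CPM, and WT and DelPID have no ES points.

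The question of the first comparison was whether the neural genes rose on differentiation, and it set NPC day 6 against ES day 0, averaged over the 6 arms with both. Nes, Vim, Tubb3 and Sox11 rose and Pax6 did not pass the test, so 4 of the 6 members tested rose and none fell. Over all 16227 genes tested, 29.4% rose and 29.4% fell. All comparisons were fitted with edgeR's quasi-likelihood test on one model of all libraries, and the adjusted p is Benjamini-Hochberg over all genes tested, called below 0.05.

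Per kilobase of counted gene body, the day 6 medians over 16 libraries were 5.29 CPM per kb for Vim, 4.39 for Nes, 2.59 for Sox11, 0.844 for Tubb3 and 0.0884 for Pax6. Fabp7 had 0.0288 CPM per kb and Zic1 and Pou3f2 were at 0. In ES day 0 the order was the same for the first 5, with 2.12 CPM per kb for Vim and 1.92 for Nes. The ranges of Vim and Nes overlapped almost wholly on both days, and that of Sox11 overlapped both, whereas Vim stood above 95.3% of the 22556 genes on day 6 and Pax6 above 42.8% of them.

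Nestin is the filament protein after which neuroepithelial progenitors are usually recognised. In ES day 0 libraries Nes had 6.31 to 66.1 CPM with a median of 17.9, and on NPC day 6 it had 7.50 to 276 CPM with a median of 41.1. By library on day 6, WT had 91.7 and 60.8 CPM, untreated PCGF35 had 276 and 116, PCGF35 with dTAG-13 had 60.1 and 24.2, and DelPID had 58 and 10.4. Untreated PCGF35_SPOC had 227 in clone F10 and 21.0 in clone F6, and under dTAG-13 these clones had 166 and 12.3. DelPID_SPOC had 24.1 and 7.50 CPM and SPOC had 22.8 and 7.55. High values were thus found in untreated PCGF35, WT and clone F10, and replicate 1 of DelPID and of treated PCGF35 came near the lower WT library. All 4 libraries of SPOC and DelPID_SPOC lay below 25 CPM. So did both libraries of F6, and replicate 2 of DelPID and of treated PCGF35.

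On average over the 6 arms Nes was 1.26 higher on day 6 than on day 0 on the log2 scale (SE 0.42, adjusted p 0.0099 by edgeR). Without the day 6 library of clone F10, untreated or with dTAG-13, it was no longer called (adjusted p up to 0.0932). In single arms, Nes rose in untreated PCGF35 (log2 fold change 3.35, SE 1.11, adjusted p 0.0217 by edgeR), where 25.4 and 12.8 CPM on day 0 were followed by 276 and 116. This call held in 1 of the 4 fits that left out a library and was lost without either day 0 library or day 6 replicate 1. The fold change was -0.02 in SPOC (95% interval -1.97 to 1.93) and -0.25 in DelPID_SPOC (-2.35 to 1.85), and neither was called. Nes libraries of days 6 and 0 did not overlap in PCGF35 without and under dTAG-13, where the day 6 libraries lay above for 32.5% and 27.7% of all genes tested, and overlapped in the other 4 arms.

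Nes was not called on day 3. It had 5.26 to 71.8 CPM then, with a mean log2 fold change from day 0 of -0.15 (SE 0.42, adjusted p 0.783 by edgeR). Between days 3 and 6 it rose by 1.61 over the 8 arms (SE 0.38, adjusted p 0.00256 by edgeR), against 10.6% of all genes that rose there, and this call held without each of the 32 libraries in turn. WT, which has no ES libraries, went from 14.7 and 6.93 CPM on day 3 to 91.7 and 60.8 on day 6.

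Vimentin is the filament protein of neuroepithelium and radial glia and of mesenchymal cells. Vim had 8.24 to 35.1 CPM in ES day 0 libraries (median 18.0), 14.8 to 67.4 on NPC day 3 (median 24.1) and 13.8 to 189 on day 6 (median 45.1). On day 6, WT had 40.8 and 44.4 CPM, untreated PCGF35 118 and 47.1, PCGF35 with dTAG-13 49.6 and 26.5, and DelPID 36.2 and 87.9. Untreated PCGF35_SPOC had 114 in F10 and 27.1 in F6, and under dTAG-13 the clones had 189 and 28.1. DelPID_SPOC had 45.8 and 64.9 CPM, and SPOC had 16.1 and 13.8, the lowest pair. In the SPOC line the day 6 values lay within the range of its 3 day 0 clones, 8.24 to 20.6 CPM.

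Averaged over 6 arms Vim rose by 1.27 from day 0 to day 6 (SE 0.25, adjusted p 7.65e-05 by edgeR), and no library left out ended the call. It rose in untreated PCGF35 (1.98, SE 0.64, adjusted p 0.0201 by edgeR) and in PCGF35_SPOC with dTAG-13 (2.09, SE 0.64, adjusted p 0.0496). The first call was lost in 3 of 4 fits with a library left out, which were without either day 0 library or day 6 replicate 1. The second was lost in 3 of 4, with a log2 fold change of 0.18 without the day 6 library of F10. Between days 3 and 6 Vim rose by 0.83 over the 8 arms (SE 0.22, adjusted p 0.00785), and without the 8 libraries of clone F10 its adjusted p was 0.0525 (range over the alternatives 9.75e-05 to 0.0525).

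Clone F10 had higher levels of most members than its sister clone F6. In all 8 groups of PCGF35_SPOC, ES cells included, Nes was 3.51 to 13.5 times as high in F10 as in F6, Vim 1.56 to 6.75 times and Sox11 2.62 to 6.13 times. Tubb3 was higher in F10 in 7 of 8 groups, Pax6 in 6 of 8, and Fabp7, with few fragments, in 8 of 8. In ES day 0, F10 had 65.1 and 66.1 CPM of Nes and F6 had 15.1 and 13.4. Clones of DelPID_SPOC differed too: Vim was lower in A8 than in G3 in 4 of 4 groups (0.445 to 0.804 times), and Pax6 was higher in A8 in 4 of 4 (1.33 to 5.81 times). Tubb3 was also higher in A8 in 4 of 4 (1.12 to 2.54 times). The share of all genes that differed in this way between clones was not computed. Replicates of unmutated DelPID also split, with Vim at 23.4 and 67.4 CPM on day 3 and 36.2 and 87.9 on day 6. The paper differentiated DelPID in parallel with these clones, so on NPC days clone and differentiation run cannot be told apart. It also describes a DelPID_SPOC clone, named G, as tetraploid. For clone F6 of PCGF35_SPOC the paper reports some cells with a single X, and this clone was sub-cloned before sequencing. In NPC samples of a separate PCGF35_SPOC clone, which its legend names G3, it interprets an allelic skew as selection for cells without the Cast X. Whether X loss bears on the levels here was not tested. With 2 libraries per group, these differences between clones or runs are the spread that the tests run against.

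Some fibroblast genes were high on day 6 in the libraries where Vim and Nes were high. The summed level of 15 fibroblast genes was 22.6 to 90.9 CPM on ES day 0, 37.6 to 96.8 on NPC day 3 and 34.0 to 392 on day 6. Of the 14 tested, 3 rose from day 0 to day 6 (29.4% of all genes did), 1 fell (29.4%) and 10 were not called, with a median log2 fold change of 0.55 against 0.0048 over all genes. The collagen genes Col5a2 (2.21, SE 0.50) and Col1a2 (2.03, SE 0.53) were the leading ones. On day 6 Col1a2 had 106 CPM in F10 with dTAG-13, 56.2 in F10 without it and 30.6 in replicate 1 of untreated PCGF35, the 3 libraries with the highest Vim and the highest Nes. It had 3.08 CPM or less in F6 and 1.87 or less in SPOC. Of the 15 genes, 6 were highest in a day 6 library of F10, where Col5a2 reached 187 CPM, Fbn1 54.2, Col1a1 22.1, Loxl1 7.36 and Postn 1.76. Replicate 2 of DelPID on day 6, also high in Vim, held the highest level of Col6a3 (12.7), Prrx1 (5.34), Dcn (3.51), Twist1 (1.52) and Lox (1.1). Of the 15, 6 stayed under 5 CPM in every library and none was at 0 in all of them. The part of fibroblast RNA in the levels of Vim and Nes was not tested.

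**Figure D2:**
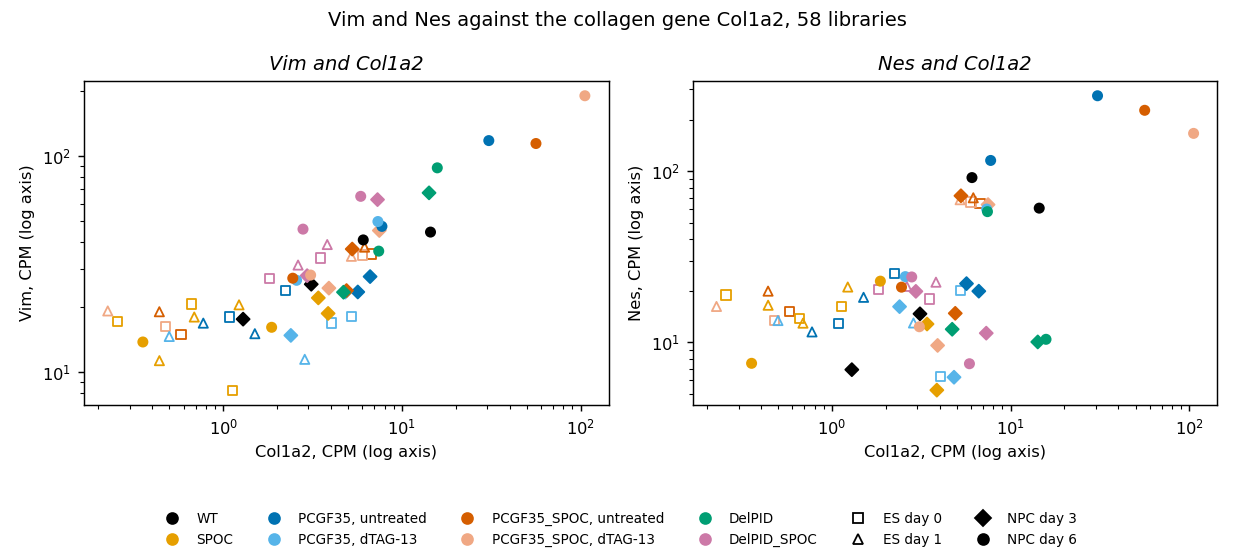
Vim (left) and Nes (right) against the collagen gene Col1a2, all in CPM on log axes, for 58 libraries, coloured by arm with 1 symbol per stage. The 3 libraries with the most Col1a2 (30.6, 56.2 and 106 CPM) are also the 3 highest for Vim and for Nes.

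Over the 58 libraries the genes with a pattern most like that of Vim were Col1a2 (Pearson r 0.857 of log2 CPM), Col8a1 (0.834) and Tnc (0.831), and those most like Nes were Pappa (0.894), Tagln (0.891) and Pik3c2a (0.885). Nes and Vim had r of 0.609 with each other, and Nes and Sox11 0.708. These are descriptions over libraries that share lines, clones and stages. Primitive endoderm genes were high in PCGF35 whether or not Nes was. The summed level of 10 trophectoderm and primitive endoderm genes on day 6 was 455 to 1053 CPM in untreated PCGF35, 507 to 1263 with dTAG-13 and 127 to 529 in the other arms.

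The alleles differed between Vim and Nes. Vim RNA came mostly from the Dom allele in ES cells, with a Dom share per group of 68.0% to 73.4% on day 0, where library-wide Dom shares of chromosome 2 were 52.5% to 54.1%. The share was 65.3% to 89.2% on day 3 and 54.5% to 85.2% on day 6, with medians of 78.3% and 60.3% over 8 groups. In untreated PCGF35 it was 55.5% on day 6 (777 of 1401 assigned fragments, 95% Wilson interval 52.9% to 58%) and 84.8% on day 3 (391 of 461, 81.3% to 87.8%). In WT it went from 75.5% to 60.8%, and in DelPID it was 89.2% on day 3 and 85.2% on day 6. Untreated PCGF35, with a day 6 mean of 82.3 CPM of Vim, was thus near the share of the chromosome. The share also came down in WT, with a mean of 42.6 CPM, but stayed high in DelPID, with 62 CPM. The Dom share of Nes was 47.6% to 59.7% in all 28 groups. Wilson intervals cover counting error only.

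**Figure D3:**
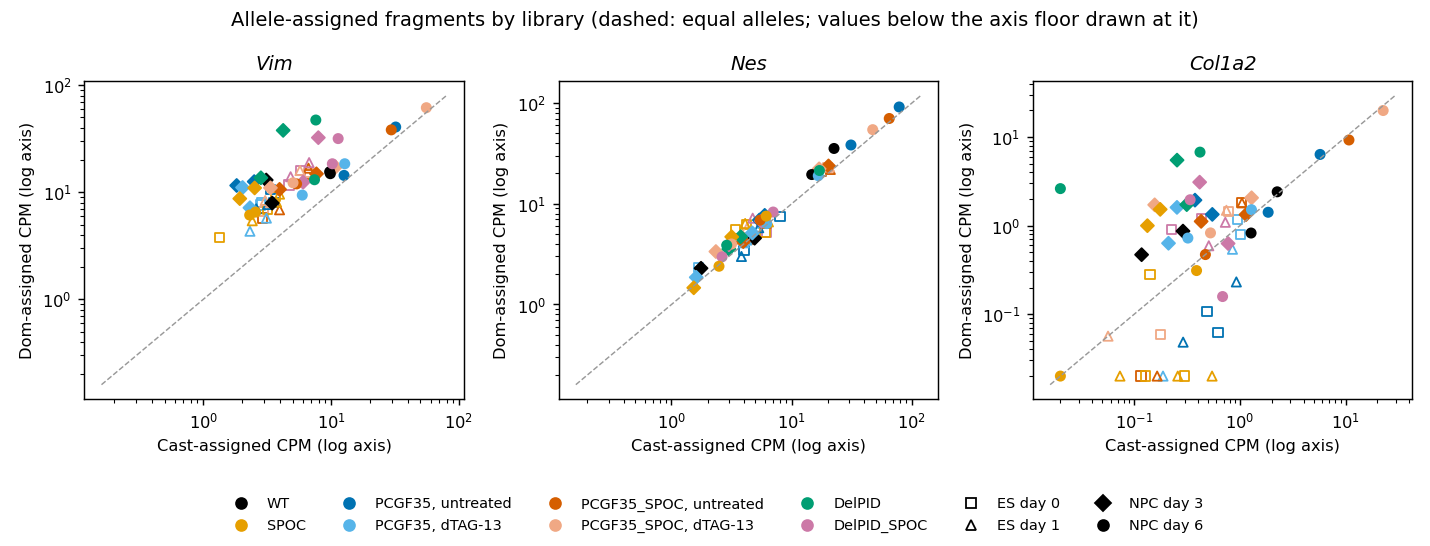
Dom-assigned against Cast-assigned CPM (log axes) of Vim, Nes and Col1a2 in each library, with a dashed line at equal alleles; values under the axis floor are drawn at it. Nes lies near the line at every stage, with group Dom shares of 47.6% to 59.7%, whereas Vim lies above it in ES cells, at 68.0% to 73.4% on day 0.

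Counting Cast fragments alone, an alternative chosen after seeing the data, gave Vim a rise of 1.66 from day 0 to day 6 and 1.56 from day 3 to day 6. From all fragments the latter was 0.83, so the Cast value was more than 1.5 times as large on the log2 scale. Nes rose by 1.23 and 1.6 in the same fits, close to its values over all fragments. Col1a2 showed a similar turn to Vim, with a median Dom share per group of 77.4% on day 3 and 49.5% on day 6 but 94.4% in DelPID on day 6. What sets these shares was not tested.

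SOX11 is a single-exon SOX transcription factor of neural progenitors and immature neurons. Sox11 had 6.86 to 43.0 CPM on ES day 0 (median 12.7) and 10.5 to 54.0 on NPC day 6 (median 21.9). On day 6 it had 46.3 and 39.3 CPM in untreated PCGF35, 20.6 and 23.6 with dTAG-13, 54.0 and 53.6 in F10, and 20.6 and 15.7 in F6, each without and with dTAG-13. WT had 34.1 and 20.7 CPM, DelPID 27.1 and 10.5, DelPID_SPOC 22.2 and 13.4, and SPOC 21.6 and 14.9. F10 already had 40.9 and 43.0 CPM in ES cells on day 0.

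Sox11 rose by 0.76 on average (SE 0.31, adjusted p 0.0381 by edgeR), and this call was lost in 10 of 25 fits with a library left out, where the adjusted p reached 0.127. The 10 were without replicate 1 of PCGF35 day 0, untreated or treated, replicate 2 of PCGF35 day 6 with dTAG-13, F10 on day 6 or F6 on day 0, each untreated or treated, A8 on day 6, G3 on day 0, or D9 on day 6. No single arm passed the test. Libraries of the 2 days did not overlap in both arms of PCGF35 and in SPOC, where 28.8% of genes lay above. The genes nearest in pattern were Zfp608 (r 0.878), Sema6a (0.877) and Snap25 (0.870).

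Class III beta-tubulin is a cytoskeletal protein of neurons. Tubb3 had 1.06 to 9.39 CPM on ES day 0 (median 3.47), 4.2 to 11.2 on NPC day 3 (median 7.43) and 5.64 to 15.9 on day 6 (median 8.82). On day 6 DelPID_SPOC had 15.9 and 11.2 CPM, DelPID 7.85 and 13.8, WT 10.4 and 7.77, and SPOC 8.63 and 6.04. Untreated PCGF35 had 9.01 and 7.18 CPM and untreated PCGF35_SPOC 9.34 and 10.2. After dTAG-13 the former had 9.08 and 7.96 CPM and the latter 5.77 and 5.64. The day 6 levels of the arms were closer to each other than those of Nes or Vim. On day 0 untreated PCGF35 had 9.31 and 4.11 CPM and the 3 SPOC clones had 3.19, 3.55 and 1.06.

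Tubb3 rose by 1.00 on average by day 6 (SE 0.22, adjusted p 2.58e-04 by edgeR) and by 0.81 by day 3 (SE 0.22, adjusted p 0.00231), and no library left out ended either call. Both share the day 0 libraries. It rose in DelPID_SPOC (2.35, SE 0.57, adjusted p 0.00497) and in SPOC (1.56, SE 0.51, adjusted p 0.0174), each lost in 2 of the fits that left out a library. Those were without A8 on day 6 or G3 on day 0, and without D9 on day 6 or H1 on day 0. In PCGF35 the fold change was 0.28 without dTAG-13 (95% interval -0.82 to 1.39) and 0.45 with it, neither called. Tubb3 RNA was mainly from Cast, with a median Dom share of 26.2% on day 6, where the library-wide Dom share of chromosome 8 ran from 34.4% to 50.9%. Its nearest genes were Pfn1 (r 0.860), Wdr18 (0.856) and Cnpy2 (0.853).

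PAX6 is a paired-box transcription factor of the forebrain and eye and of radial glia. Its antisense gene Pax6os1 overlaps it on the other strand, and the counts were made with strand. Pax6 had 0.767 to 4.46 CPM on ES day 0 (median 1.34), 0.338 to 9.23 on NPC day 3 (median 3.07) and 0.378 to 10.6 on day 6 (median 2.52). On day 6 DelPID_SPOC had 10.6 and 7.91 CPM and SPOC 6.69 and 4.53, followed by DelPID with 2.18 and 4.92, PCGF35_SPOC with 2.57 and 3.20, and WT with 2.55 and 2.49. Untreated PCGF35 had 0.378 and 1.42 CPM, dTAG-13-treated PCGF35 0.832 and 0.804, and PCGF35_SPOC with dTAG-13 1.52 and 1.05. In this order of group means DelPID_SPOC stood above all other arms, SPOC, DelPID and PCGF35_SPOC each overlapped the next, and WT lay just below untreated PCGF35_SPOC and above the 3 lowest arms. Of these, untreated PCGF35 overlapped both arms treated with dTAG-13, which did not overlap each other.

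Pax6 rose by day 3 on average (0.79, SE 0.29, adjusted p 0.0215 by edgeR), when 26.4% of all genes rose and 2 of the 6 members tested did, the other being Tubb3. This call was lost without replicate 1 of PCGF35 day 3 with dTAG-13, F6 on day 0 or A8 on day 3. With Cast fragments alone the sign turned (-0.42, adjusted p 0.418 by edgeR), and with a log2 fold change of at least 1 as well it was lost. Over the 9 alternatives that give a test the adjusted p ran from 0.00116 to 0.418. By day 6 the average was 0.47 and not called (adjusted p 0.178). The estimates pointed in different directions in different arms. The day 6 fold change was 2.19 in SPOC (SE 0.64, adjusted p 0.00793) and 1.91 in DelPID_SPOC (SE 0.69, adjusted p 0.0461), both called, against -0.80 in untreated PCGF35 and -0.88 with dTAG-13, neither called. In a contrast of 3 of these arms, the mean change of DelPID_SPOC and SPOC minus that of untreated PCGF35 was 2.85 for Pax6 (SE 0.94, adjusted p 0.0585 by edgeR). No member was called in this test, against 6.53% of all genes, and PCGF35_SPOC was not part of it. The arms set against each other follow the pattern just described in the same libraries, so this p-value gives no independent support. The SPOC call was lost without D9 on day 6. The DelPID_SPOC call was lost without A8 or G3 on day 6 or G3 on day 0, whose fold changes ran from 1.09 to 3.55. In PCGF35 with dTAG-13 both day 6 libraries lay below both day 0 libraries, at 0.832 and 0.804 after 1.91 and 1.17 CPM, as 30.5% of genes did. In DelPID_SPOC, where Pax6 did not overlap either, 28.3% of genes lay above.

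**Figure D4:**
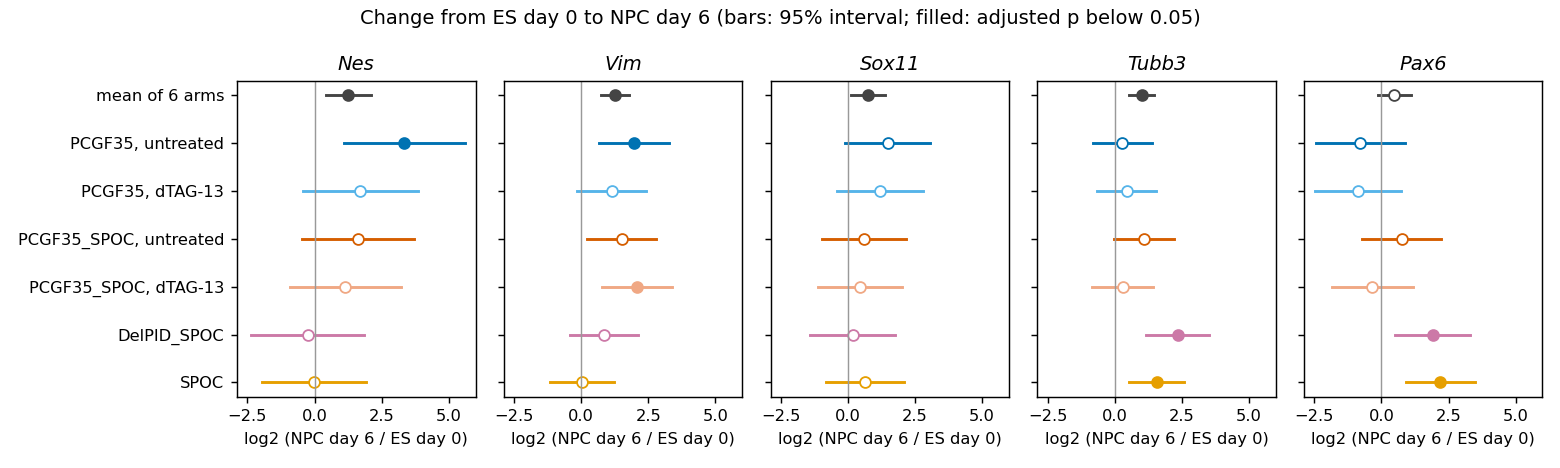
Log2 fold change from ES day 0 to NPC day 6 of 5 members, for the mean of 6 arms and each arm; points are edgeR estimates, bars 95% intervals, and filled points have an adjusted p below 0.05. Nes and Vim are filled in untreated PCGF35 (3.35 and 1.98), and Pax6 and Tubb3 in DelPID_SPOC and SPOC.

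Counts of members called in single arms stood beside very different backgrounds. In untreated PCGF35 2 of 6 members rose (Nes and Vim) and 13.6% of all genes did. In DelPID_SPOC 2 of 6 rose (Pax6 and Tubb3) against 9.83%, and in SPOC 2 of 6, again Pax6 and Tubb3, against 17.3%. In PCGF35_SPOC with dTAG-13 1 of 6 rose against 2.33%. In PCGF35 with dTAG-13 and in untreated PCGF35_SPOC no member was called, where 4.46% and 2.9% of all genes rose.

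Whether the rise differed among the 6 arms was tested on 5 degrees of freedom. No member passed (adjusted p 0.123 for Pax6, 0.282 for Tubb3 and 0.441 for Nes by edgeR), against 2.17% of all genes, and Pax6 had an unadjusted p of 0.0101. When clones, or replicate numbers in lines without named clones, entered as a replicate block, 3 members passed: Nes (adjusted p 0.00201), Pax6 (0.00422) and Tubb3 (0.0312). Over the 9 alternatives the adjusted p ran from 0.00201 to 0.601 for Nes, from 0.00422 to 0.421 for Pax6 and from 0.0312 to 0.509 for Tubb3. The block fit called 25.4% of all genes.

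The replicate block changed other calls, over a background that was larger too. It added Pax6 to the members that rose by day 6 on average (0.58, adjusted p 0.0338 by edgeR), and Vim (0.48, adjusted p 0.00884) and Sox11 (0.65, adjusted p 2.17e-04) to those that rose by day 3, when 33.8% and 31.3% of all genes rose in the block fit. Over the 9 alternatives the adjusted p of these ran from 0.0338 to 0.95, from 0.00884 to 0.953 and from 2.17e-04 to 0.279. In single arms it added Sox11 in untreated PCGF35 (1.54), Nes, Vim and Sox11 in PCGF35 with dTAG-13 (1.74, 1.12 and 1.23), and Nes, Vim and Tubb3 in untreated PCGF35_SPOC (1.27, 1.38 and 1.21). In PCGF35_SPOC with dTAG-13 it kept Vim (1.81) and added Fabp7. The Fabp7 call rests on clone F10, with 6 fragments on day 0 and 37 on day 6, against 0 and 1 in F6. Of all genes, 20.9%, 12.2%, 10.1% and 8.76% rose in these 4 arms in that fit. Nes in SPOC and DelPID_SPOC was not called in the block fit.

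The SPOC mutation was compared with its parent in 3 backgrounds, SPOC against WT, untreated PCGF35_SPOC against untreated PCGF35, and DelPID_SPOC against DelPID, which asks whether neural genes respond to the mutation. The paper states that WT was differentiated in parallel with clones D9 and H1, and DelPID in parallel with the DelPID_SPOC clones. No fit here paired mutant with parent, since the replicate block lies within a line. Entering the block takes the spread between clones or replicates of a line out of the error. Its p-values for mutant against parent thus do not measure that spread. The labels do not say which parental replicate went with which clone. Pax6 was higher with the mutation, and on day 3 it was the only member called. On that day SPOC had 6.63 and 5.73 CPM and WT 3.25 and 4.46, PCGF35_SPOC 4.19 and 4.81 and PCGF35 1.10 and 1.13, and DelPID_SPOC 9.23 and 4.81 and DelPID 1.26 and 2.24. In 3 of 3 backgrounds on day 3 and in 3 of 3 on day 6 both mutant libraries lay above both parental ones, which 2.52% of all genes tested did on day 3 and 2.26% on day 6. Some parental counts were small, with 8 Pax6 fragments in replicate 1 of DelPID on day 3. On day 6 replicate 1 of DelPID had 5 and replicate 1 of untreated PCGF35 had 6. The average difference was 1.54 on day 3 (SE 0.41, adjusted p 0.039 by edgeR), where 1.14% of all genes rose, and 1.39 on day 6 (SE 0.42, adjusted p 0.0842), not called, where 1.14% rose as well. With the replicate block the values were 1.64 (adjusted p 8.91e-04, where 5.1% of all genes rose) and 1.53 (adjusted p 0.00237, where 6.78% rose), and over the 9 alternatives the adjusted p ran from 8.91e-04 to 0.143 on day 3 and from 0.00237 to 0.311 on day 6. The day 3 call was lost in 10 of 12 fits that left out a library, all but those without clone F10 or G3, with differences from 1.35 to 1.70 and an adjusted p up to 0.144.

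Within single backgrounds the Pax6 difference on day 3 was 0.71 in WT cells (95% interval -0.64 to 2.07), 1.97 in PCGF35 (0.48 to 3.46) and 1.95 in DelPID (0.50 to 3.40), and none was called alone. In ES day 0 cells PCGF35_SPOC had 2.64 and 0.87 CPM and PCGF35 1.86 and 1.08, which overlapped (difference 0.22, 95% interval -1.27 to 1.71). The lowest allele counts of Pax6 held 6 assigned fragments per group on day 6, too few for a share. Genes nearest to Pax6 in pattern were Nefl (r 0.679), Fgf1 (0.663) and Impact (0.653), and its r with Nes was -0.07.

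From Nanog, Klf2, Nes and Vim in WT and SPOC cultures, the paper describes tentative evidence of defective differentiation. In SPOC against WT, Pax6 libraries lay above on days 3 and 6 and Tubb3 libraries overlapped on both. Nes was not called between mutant and parent on either day with all libraries and no block. SPOC had 22.8 and 7.55 CPM against 91.7 and 60.8 in WT, which did not overlap (29% of genes lay below), whereas PCGF35_SPOC and PCGF35 overlapped, as did DelPID_SPOC and DelPID. The average difference was -1.34 (SE 0.61, adjusted p 0.272 by edgeR), not called, and -1.45 with the replicate block (adjusted p 7.29e-04, range over the alternatives 7.29e-04 to 0.71), where 5.81% of all genes fell. That block p-value again leaves out the spread between clones or replicates of a line. Vim had an average difference of -0.64 on day 6 (adjusted p 0.394), Sox11 of -0.26 and Tubb3 of 0.08, none of them called. Without the 8 libraries of clone F10, an alternative chosen after seeing the data, Nes (-2.18, adjusted p 0.00157 by edgeR) and Vim (-1.10, adjusted p 0.0106) were lower with the mutation on day 6 and Pax6 (1.45, adjusted p 0.0162) higher, where 6.73% of all genes fell and 6.51% rose. On day 3 the difference of Nes was 0.43, with a 95% interval of -0.81 to 1.67.

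dTAG-13 was compared with no treatment over both degron lines on days 0, 3 and 6, which asks what PCGF3/5 loss does to these genes. No member was called on any day by edgeR, and neither was any of the 16227 genes (0% each day, with 202, 304 and 799 genes at an unadjusted p under 0.05 and 0, 0 and 2 genes called by DESeq2). On day 6 Nes had 60.1 and 24.2 CPM with dTAG-13 and 276 and 116 without it in PCGF35, which did not overlap, and 166 and 12.3 against 227 and 21.0 in PCGF35_SPOC, which did. The average difference of Nes was -1.34 (SE 0.72, adjusted p 0.968 by edgeR), and with the replicate block it was -1.38 and called (adjusted p 0.0277, range over the alternatives 0.0277 to 1), where 0.622% of all genes fell. Within both clones of PCGF35_SPOC and both replicates of PCGF35, the treated day 6 library had the lower Nes. In PCGF35 this follows from the libraries not overlapping, and the share of all genes lower in all these pairs was not computed. On day 0 the average difference was -0.28 (adjusted p 1). Treated libraries lay below untreated ones on day 6 for Nes, Sox11 and Fabp7 in PCGF35 (23.3% of all genes tested did) and for Pax6 and Tubb3 in PCGF35_SPOC (9.29%). On day 3 they did so for Nes, Vim and Sox11 in PCGF35 (23.7%) and for Pax6 in PCGF35_SPOC (8.95%). Pax6 in PCGF35_SPOC had 2.89 and 1.56 CPM with dTAG-13 against 4.19 and 4.81 on day 3.

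A day of doxycycline in ES cells left the members near their day 0 levels. Of all genes, 0.0924% were called and no member was (adjusted p 1 for each of the 5 members with folds by edgeR, with 15 genes called, 36 called by DESeq2 and 658 at an unadjusted p under 0.05 over all genes). The mean log2 differences were 0.01 for Nes, -0.05 for Vim, 0.19 for Pax6, -0.19 for Sox11 and -0.02 for Tubb3.

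Fabp7, Zic1 and Pou3f2 had almost no chromatin RNA at any stage. FABP7 is the fatty acid binding protein of radial glia, ZIC1 a zinc finger factor of the dorsal neural plate and POU3F2 a POU factor of neural progenitors and neurons. Fabp7 lies on chromosome 10 from 57784922 to 57788450, Zic1 on chromosome 9 from 91360344 to 91365799 and Pou3f2 on chromosome 4 from 22482094 to 22488366. Zic1 had 0 fragments in 12 of 16 day 6 libraries and 1 in each of the other 4, and had at most 5 in any library, in clone D9 on ES day 0. Pou3f2 had 0 in 10 of 16 day 6 libraries and at most 12 in any library, in G3 on ES day 0. Over all libraries of a stage, Pou3f2 had 40 fragments in 13 day 0 libraries and 13 in 16 day 6 libraries, and Zic1 had 19 and 4. The totals were thus higher before differentiation than after it, in counts too few for a fold change or a test.

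Fabp7 had 37 fragments (2.25 CPM) in F10 with dTAG-13 on day 6, and 12 or fewer in every other library. The next highest were also from F10, with 12 and 9 fragments on day 3. The fit across all libraries gave no stable fold change for it, though it counts among the 6 members tested. In the remaining day 6 libraries it ran from 0 to 6 fragments, so a rise outside F10 was not detectable at this depth.

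**Figure D5:**
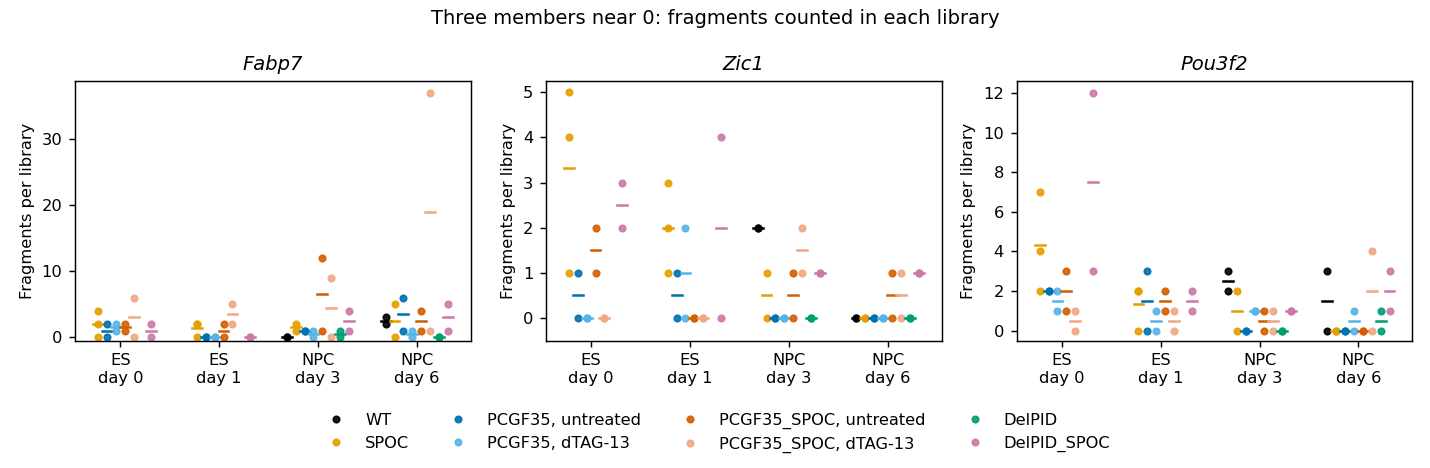
Fragments counted for Fabp7, Zic1 and Pou3f2 in each library, by stage and coloured by arm, with bars at group means; the vertical scales differ. Apart from 37 Fabp7 fragments in 1 library of PCGF35_SPOC with dTAG-13, no library exceeds 12 fragments of any of the 3 genes.

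The other genes of the neural path were mixed, and each list below is read beside the 29.4% of all genes that rose and the 29.4% that fell by day 6. Of 28 neuroectoderm transcription factors 18 could be tested, and on day 6 against day 0 over 6 arms 4 rose, 4 fell and 10 were not called, with a median log2 fold change of 0.01. Meis2, a TALE homeobox factor, rose by 1.61 (SE 0.20) and Pou3f1, a POU factor of epiblast and early neural cells, by 1.52 (SE 0.25), and Pax2, a factor of midbrain and kidney, fell by 1.42 on the log2 scale. Sox1 and Sox2 were listed at 0 in all 58 libraries. Both lie inside a longer gene on the same strand, Gm5607 and Sox2ot, with 789 and 40357 fragments over all libraries, so their 0 says nothing about them. Of 17 radial glia and progenitor genes tested 9 rose, 3 fell and 5 were not called (median 0.57), led by the matrix protein gene Tnc (2.60), the growth factor gene Ptn (2.11) and the nuclear factor gene Nfia (1.48). Of 18 neuronal genes 7 rose, 5 fell and 6 were not called (median 0.49), among them Neurod1 (1.58) and Hes6 (0.86).

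On the mean of the 6 arms, naive pluripotency genes fell and formative genes rose. Of 13 naive pluripotency genes 12 fell and 1 was not called (median -1.07), with Tbx3 at -2.37, Zfp42 at -1.84 and Tfcp2l1 at -1.68. By arm the naive median was -2.44 in untreated PCGF35 and -1.56 with dTAG-13. Over the SPOC-mutant arms it ran from -0.96 in SPOC to -0.52 in DelPID_SPOC. Of 9 formative and epiblast genes 7 rose and 2 were not called (median 1.44), with the X-linked Sox3 at 2.28, the epiblast growth factor gene Fgf5 at 2.26 and Sall2 at 1.91. The formative median ran from 0.08 in PCGF35_SPOC with dTAG-13 to 2.15 in SPOC. Pou5f1, the factor shared by naive and epiblast cells, still had 25.0 to 82.6 CPM on day 6 after 41.4 to 75.5 on day 0, and Nanog had a median of 23.7 after 57.5. Genes of other fates moved as well: 4 of 8 mesoderm and endoderm genes rose and 2 fell, led by Gata4 (1.82), Gata6 (1.51) and Sox17 (1.4). By arm the median of these 8 was 3.30 in untreated PCGF35 and 2.19 with dTAG-13. It was 0.82 in untreated PCGF35_SPOC and 1.08 with dTAG-13, but -0.45 in DelPID_SPOC and -1.51 in SPOC. Differences between arms were not tested for these lists. Of 8 trophectoderm and primitive endoderm genes 4 rose and 2 fell, led by Pdgfra (1.71), Lamb1 (1.21) and Sparc (0.93). Of 7 neural crest genes 2 rose, Tfap2a (2.96) and Ets1 (2.10), and 4 fell, Mitf by 0.86 on the log2 scale among them. In bulk cultures, fewer cells of a type and less RNA per cell cannot be told apart.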

How the data were processed

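ChrRNA-seq libraries of 58 cultures were used. As the labels and methods describe, the authors used a stranded kit for total RNA, discarded ribosomal reads by Bowtie2 2.3.2, aligned pairs with STAR 2.4.2a to mm10 with strain differences masked, assigned them to alleles in SNPsplit, and obtained strand-specific fragment counts for each gene from featureCounts 1.5.2. The deposited counts are raw fragment counts, in 3 columns: all fragments, Cast and Dom. Counting ran over whole gene bodies, introns included, so levels per kb use gene length and a gene inside another on its strand is not counted.

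Here edgeR 4.0.16 in R 4.3.3 was fitted with 1 mean per group over all libraries, after filterByExpr and TMM normalization, on 16227 genes with a threshold of 0.05. No column of an unlabelled sample was used. The script was tested on simulated data. CPM was computed from library totals, and correlations from log2(CPM + 0.5).

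The members and lists were chosen with earlier results of these data known. Named beside the members are at most 3 genes per list, those with the largest change among genes called with at least 2 CPM in a group mean, and the 3 genes of a mean of at least 1 CPM that correlate best with a member. A gene that this rule names is not reported here. Xist checks labels, and other genes with values (further fibroblast genes, Pou5f1 and Nanog) were named after their values were seen.

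Clones pair the libraries of the SPOC-mutant lines, since a clone is 1 cell line. Deviations from group means correlated between libraries of 1 clone by 0.226 to 0.92 in PCGF35_SPOC, 0.324 to 0.883 in DelPID_SPOC and -0.076 to 0.717 in SPOC. PCGF35 numbers correlated by -0.026 to 0.8, where treated and untreated cells were cultured in parallel. Alternatives changed the normalization, filter, test, samples, pairing, libraries, fold threshold and allele.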

Additional observations from a re-analysis of the deposited data

Results flagged for a closer look

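Pax6 libraries lay on opposite sides of their day 0 libraries between arms on NPC day 6. Its log2 fold change was 1.91 in DelPID_SPOC and 2.19 in SPOC, where every day 6 library lay above every day 0 library, and -0.88 in PCGF35 with dTAG-13, where every day 6 library lay below. The first 2 changes were called and the third was not, and the difference between these single arms was not tested. Over the 6 arms together, the change from day 0 to day 6 differed in the fit with clones, or replicate numbers in lines without named clones, as a replicate block, for Nes (adjusted p 0.00201 by edgeR), Pax6 (0.00422) and Tubb3 (0.0312), where 25.4% of all genes were called. Without the block no member was called (adjusted p 0.123 for Pax6) and 2.17% of all genes were.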

How the results depend on the processing

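The number of members called was recomputed under each alternative. On day 6 against day 0 over 6 arms it was 4, stayed within 1.5 times of that under all 10 alternatives other than leaving out a library, and ran from 2 to 5 without a single library. On day 3 it was 2, and 1 with Cast fragments alone, 4 without the 8 libraries of clone F10 (Vim, Pax6, Sox11 and Tubb3), 4 with the replicate block and 0 with a log2 fold change of at least 1 as well. The F10 and Cast alternatives were chosen after seeing the data. The replicate block took PCGF35 with dTAG-13 from 0 to 3 and untreated PCGF35_SPOC from 0 to 3. It took PCGF35_SPOC with dTAG-13 from 1 to 2, the addition being Fabp7, which rests on clone F10. It took dTAG-13 on day 6 from 0 to 1, SPOC against parent on day 6 from 0 to 2 and the difference among arms from 0 to 3. DESeq2 took each of the last 2 from 0 to 1 (Pax6). For SPOC against parent, p-values of the block fit leave out the spread between clones. PCGF35_SPOC with dTAG-13 had 0 without F10, with library totals alone or with only the groups compared. DelPID_SPOC went from 2 to 1 with Cast fragments, no filter, RLE size factors or without the 2 shallowest libraries, and to 0 with only the groups compared, and SPOC from 2 to 1 with Cast fragments. SPOC against parent on day 3 went from 1 to 0 with Cast fragments or without the 2 shallowest libraries, and on day 6 from 0 to 3 without F10 (Nes, Vim and Pax6), where all genes called went from 225 to 2181. Day 6 against day 3 went from 2 to 1 (Nes) without F10 or with the fold threshold. The cause was not tested. Pax6 changed sign on day 3 against day 0 with Cast fragments alone (-0.42, adjusted p 0.418 by edgeR). Without a single library the number of members ran from 1 to 3 on day 3, from 0 to 2 in untreated PCGF35, PCGF35_SPOC with dTAG-13, DelPID_SPOC, SPOC and SPOC against parent on day 6, and from 0 to 1 for SPOC against parent on day 3 and for the difference among arms. Day 6 against day 3 stayed at 2, and the other comparisons stayed at 0. Where an arm kept 1 library, that library was assumed to vary like the other groups. Of single-member fold changes, 91 of 905 without a library and 34 of 750 under other alternatives changed sign, called in neither fit. The block changed no other number by more than 1.5 times. Depth limits Fabp7, Zic1 and Pou3f2.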
